A study of Mus musculus with 248 samples.

Results

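Blood of 7 control (Ctrl) mice of the training cohort was compared with itself across 4 monthly samplings, with months 6 and 8 set against months 5 and 7. The months were chosen from the data, because globin transcripts took a high share of the reads at months 6 and 8 and a low share at months 5 and 7. The comparison held 28 of the 248 libraries of the series, 1 from each mouse at each of the 4 months. For each mouse and gene, the mean log2 level of months 5 and 7 was subtracted from that of months 6 and 8.

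The study followed blood by bulk RNA-seq in a knock-in mouse model of acute myeloid leukemia carrying the Cbfb-MYH11 (CM) fusion. The Ctrl mice were littermates that lacked the full combination of alleles, being wild type or carrying Cbfb+/56M or Mx1-Cre alone, and their genotype codes were WT for 1 mouse, HW for 2 mice and CW for 4 mice, with 5 males and 2 females. The CM mice carried both Cbfb+/56M and Mx1-Cre (code CHW), in which Cre under the interferon-inducible Mx1 promoter switches on the fusion. All mice were C57BL/6 and all, Ctrl included, received poly(I:C) at 14 mg/kg every other day for 7 doses at an age of 4 to 8 weeks, so the months are months of sampling of animals that had all been given this interferon inducer. Blood was drawn from the retro-orbital sinus, and the libraries of the training cohort were made after removal of ribosomal RNA. The choice of months did not use a further 2 sets of libraries, which were tested: 15 libraries of months 5 to 8 from 5 CM mice of the training cohort, and 12 libraries of months 6 and 5 from 6 Ctrl mice of the validation cohort, made with another library kit.

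Red cells carry hemoglobin, built from alpha- and beta-globin chains and heme, and lose their nucleus as they mature. The youngest circulating red cells, the reticulocytes, still hold RNA, and most of it encodes globin and the proteins of late maturation. The tissue label names mononuclear cells of peripheral blood, a preparation meant to leave most red cells and granulocytes behind.

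The 2 adult beta-globin genes, Hbb-b1 and Hbb-b2 in the count table, carried the most reads of the globin family here, and the 250 bases before their start sites are shown for that reason. In RefSeq (GRCm38.p6) they stand as Hbb-bs at chr7:103827929-103828178 and Hbb-bt at chr7:103813924-103814173, both on the minus strand. Each name was tied to its transcript by the 50 bases after the start, of which 50 matched its own transcript and 41 that of the other gene. Capitals mark the motifs searched on both strands, AGATAAG (a form of the site of GATA factors), CCACACCC (a form of the site of Klf1) and TATAAA (the core promoter box).
Hbb-b1 (Hbb-bs): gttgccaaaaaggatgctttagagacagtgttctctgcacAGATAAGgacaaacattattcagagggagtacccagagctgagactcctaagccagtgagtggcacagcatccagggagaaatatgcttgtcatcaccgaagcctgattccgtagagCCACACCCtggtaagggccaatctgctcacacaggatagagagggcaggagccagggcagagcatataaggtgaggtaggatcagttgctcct
Hbb-b2 (Hbb-bt): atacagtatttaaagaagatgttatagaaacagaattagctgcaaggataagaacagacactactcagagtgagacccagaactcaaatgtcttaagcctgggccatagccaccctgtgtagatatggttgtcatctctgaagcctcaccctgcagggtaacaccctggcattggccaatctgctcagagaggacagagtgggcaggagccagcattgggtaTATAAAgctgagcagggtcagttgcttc
Hbb-bs held AGATAAG and CCACACCC and Hbb-bt held TATAAA. Only exact matches were counted, so near matches such as tataag in Hbb-bs and ggataag in Hbb-bt were not. A motif left unmarked is therefore not shown to be absent in other forms. Over 32851 RefSeq promoters of this length, 2.74% held AGATAAG, 3.20% CCACACCC and 12.4% TATAAA. Among 571 promoters of genes that were higher in all 7 Ctrl mice the shares were 2.63%, 3.68% and 11.4%, and among 9200 promoters of genes lower in all 7 they were 1.73%, 3.50% and 6.09%.

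The 28 libraries held 16.3 to 27.5 M reads in genes (M, 1000000 reads). They were smaller at months 6 and 8, with 18.8 ± 1.07 M reads, than at months 5 and 7, with 23.6 ± 1.42 M reads (mean ± SD over 7 mice), and smaller in all 7 mice. Mitochondrial ribosomal RNA took 0.159 ± 0.134% of reads at months 6 and 8 and 0.0278 ± 0.0417% at months 5 and 7, higher in all 7 mice. The noncoding nuclear RNA Malat1 took 0.510 ± 0.141% at months 6 and 8 and 0.942 ± 0.177% at months 5 and 7, lower in all 7. The library names carry a label from G1 to G7 whose meaning is not stated; 7 of 7 labels held libraries of both pairs of months, and in 5 of the 7 every library of months 6 and 8 had a higher globin share than every library of months 5 and 7. The part of depth, ribosomal RNA and the G label in the results below was not tested beyond a fit on all libraries with the label as a term, which called 14185 genes where the same fit without it called 15000. Neutrophil genes took 0.106 ± 0.0726% of reads at months 6 and 8 and 0.323 ± 0.229% at months 5 and 7, so transcripts of granulocytes, platelets and red cells were all present under the mononuclear label. The sex genes matched the labelled sex in all 28 libraries. In bulk blood, fewer cells of a type and less RNA per cell cannot be told apart, which holds for every result below.

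The 4 adult globin genes together took a median of 29.9% of reads at month 6 and 39.1% at month 8, against 3.56% at month 5 and 7.28% at month 7. Over the mice, the mean of months 6 and 8 was 29.6 ± 8.40% and that of months 5 and 7 was 7.26 ± 2.70%. On the log2 scale the share was higher by 2.22 ± 0.76 (SD, n = 7 mice), a geometric mean of 4.67-fold, and it was higher in all 7 mice. The ratio ran from 1.67-fold in mouse 3335 to 7.51-fold in mouse 3349. Mouse 3335 departed from the others: its share was 29.1% at month 6 and 7.54% at month 8, against 13.1% at month 5 and 6.02% at month 7. These values chose the months, so they describe the contrast and carry no test.

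**Figure D1:**
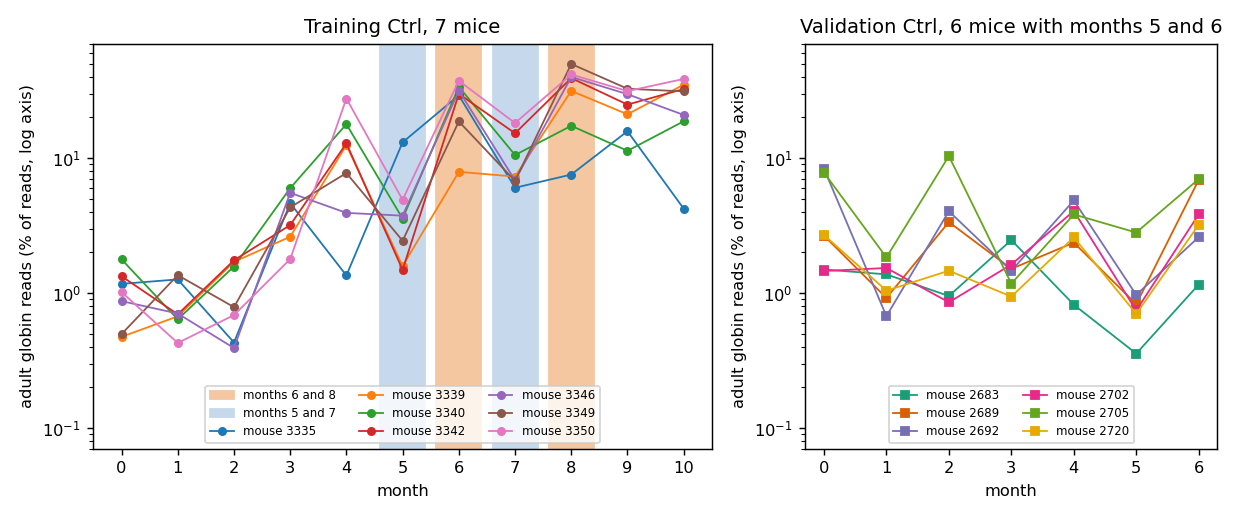
Share of reads in the 4 adult globin genes (log axis, percent of reads) by month, 1 line per mouse, for 7 training Ctrl mice at months 0 to 10 (left) and 6 validation Ctrl mice at months 0 to 6 (right). Orange bands mark months 6 and 8 and blue bands months 5 and 7; the median was 29.9% and 39.1% in the orange bands against 3.56% and 7.28% in the blue ones.

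Each value of the table is a share of all reads, and most genes were lower at months 6 and 8. By the per-mouse sign, 737 of 18508 genes (3.98%) were higher at months 6 and 8 in all 7 mice and 12425 (67.1%) were lower in all 7. The 737 genes took 48.1 ± 10.1% of reads at months 6 and 8 and 14.8 ± 4.32% at months 5 and 7. Without the 4 globin genes, the other 733 took 18.5 ± 2.96% at months 6 and 8 and 7.55 ± 1.70% at months 5 and 7. The 12425 genes took 27.9 ± 7.95% at months 6 and 8 and 66.7 ± 5.82% at months 5 and 7. The limma fit called 15430 genes (83.4%), 1619 higher (8.75%) and 13811 lower (74.6%), counts that describe the chosen contrast and support nothing.

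CPM are counts per 1000000 reads of a library. The median difference of all genes was -1.51 on the log2 CPM scale. This shift depended on the scaling: it was -0.14 with median-ratio scaling, -1.12 with CPM outside the globin genes and -0.28 with quantile normalization. With median-ratio scaling the same fit called 4811 genes higher and 5343 lower, against 1619 and 13811 as deposited; quantile normalization gave 4427 and 7539. The changes of gene groups are therefore given on the deposited scale and relative to the median of all genes.

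Several lists of red cell genes were higher together, while those of heme synthesis, iron handling and erythroid transcription factors were split. The 4 globin genes had a median difference of 1.97, which is 3.48 above the median of all genes, and were higher in 7 of 7 mice each. Hbb-b1 lay between 15.70 and 18.53 log2 CPM with a median of 17.83 in the 14 libraries of months 6 and 8, against 13.26 to 16.95 with a median of 15.40 in the 14 libraries of months 5 and 7. The ranges overlapped: mouse 3339 at month 6 and mice 3335 and 3340 at month 8 lay below the highest library of months 5 and 7. Hbb-b1 was higher by 2.32 ± 0.76 (SD over 7 mice), or 5.01-fold, and took 21.9% of reads at months 6 and 8 and 4.97% at months 5 and 7. Hbb-b2 was higher by 2.11 ± 0.77. The alpha-globin genes Hba-a1 (chromosome 11, 32283672 to 32284486, GRCm38.p6) and Hba-a2 were higher by 1.82 ± 0.80 and 1.84 ± 0.87. Reads of Hba-a1, Hba-a2 and the pseudogene Hba-ps4 (3.02 ± 0.88) can be shared between near-identical copies, as can those of Hbb-b1 and Hbb-b2, so their separate values are uncertain.

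Of 31 genes of late red cell maturation, 19 were higher and 2 lower in all 7 mice, with a median of 1.37, or 2.89 above all genes. Beside this and the following lists, 3.98% of all genes were higher and 67.1% lower in all 7 mice. Bnip3l, which drives removal of mitochondria from reticulocytes, lay between 8.53 and 11.16 log2 CPM (median 10.52) at months 6 and 8, against 7.07 to 9.98 (median 8.84) at months 5 and 7, a difference of 1.80 ± 0.60. The groups overlapped in part, as they did for every gene of the list. Bpgm, the enzyme that makes 2,3-bisphosphoglycerate, was higher by 1.78 ± 0.87, and Hemgn by 1.93 ± 0.69. All of these were higher in 7 of 7 mice.

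Of 17 genes of the red cell membrane and its skeleton, 8 were higher and 1 lower in all 7 mice (median 1.36). Rhag, of the Rhesus complex, was higher by 1.94 ± 0.86. The anion exchanger Slc4a1 was higher by 1.36 ± 0.80 in 6 of 7 mice. Slc2a1, the glucose transporter that human red cells carry, differed by -1.98 ± 0.60, lower in all 7 mice.

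The heme synthesis list split by gene. Of 9 genes, 3 were higher and 4 lower in all 7 mice, where 3.98% and 67.1% of all genes were. Their median was -0.09, beside -1.51 for all genes. That sign turned positive under median-ratio, globin-free and quantile scaling (1.35, 0.32 and 0.98). Alas2, the erythroid form of the first enzyme, lay between 11.74 and 14.90 log2 CPM (median 13.89) at months 6 and 8, against 10.08 to 13.57 (median 11.87) at months 5 and 7. It differed by 1.83 ± 0.90 and was higher in 7 of 7 mice, while Alas1, the form used in other tissues, differed by -2.01 ± 0.66 and was lower in 7 of 7. Fech, which inserts the iron, was higher by 1.67 ± 0.87. Ppox, the penultimate enzyme, differed by -1.35 ± 0.30, which lay above the median of all genes and became 0.09 under median-ratio scaling. The mitochondrial iron importers divided in the same way: Slc25a37 (mitoferrin 1, erythroid) was higher by 1.57 ± 0.87 in 6 of 7 mice and Slc25a28 (mitoferrin 2) differed by -2.11 ± 0.69, lower in 7 of 7. The iron exporter Slc40a1 differed by -2.32 ± 0.65, lower in 7 of 7. Of 11 measured genes of red cell iron handling, 3 were higher and 6 lower in all 7 mice, with a median of -0.86.

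The erythroid transcription factors varied, with 3 of 11 higher and 3 of 11 lower in all 7 mice. Of all genes 3.98% were higher and 67.1% lower, with a median of -1.51, so lower members were fewer than among all genes. Sox6 was higher by 1.87 ± 0.77 and Klf1 by 1.21 ± 0.54, Klf1 at a low level of -0.95 log2 CPM at months 6 and 8 and -2.16 at months 5 and 7. Gata1 was higher by 0.82 ± 0.60 in 6 of 7 mice, and month 8 against month 7 alone gave -0.03. Ldb1, the cofactor that joins Gata1 complexes, differed by -1.92 ± 0.57, and Bcl11a, a repressor of embryonic globins that B cells also use, by -2.01 ± 0.53, both lower in 7 of 7.

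**Figure D2:**
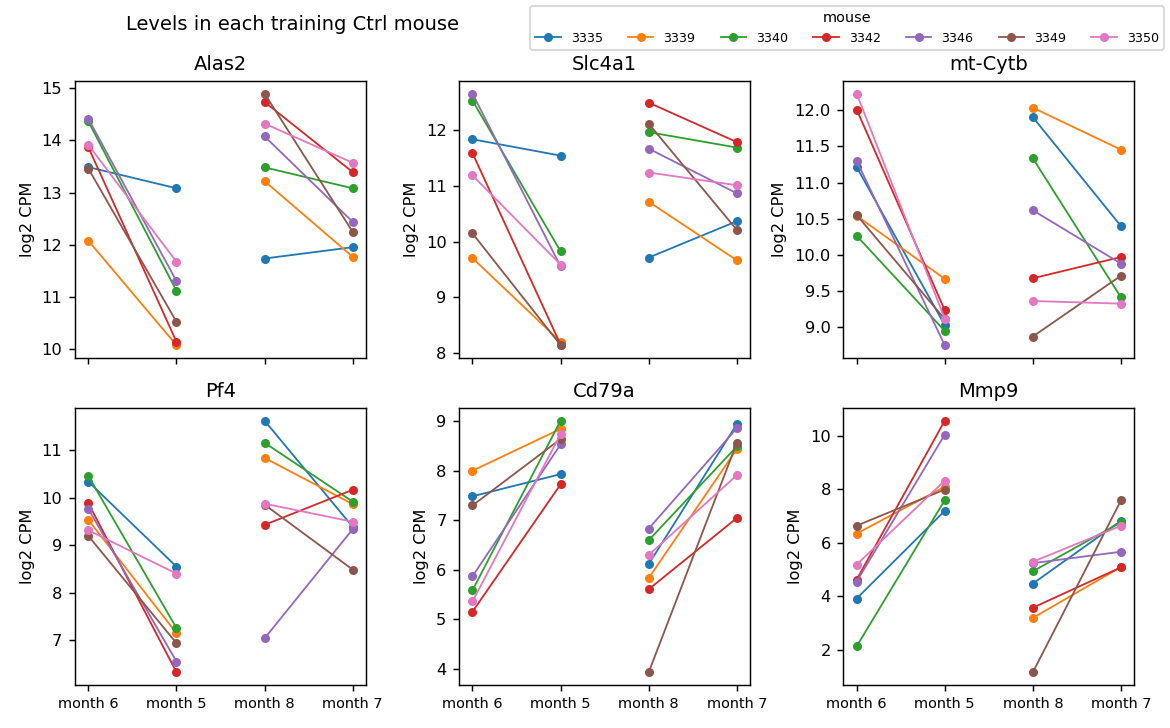
Levels (log2 CPM) of 6 genes in each of 7 training Ctrl mice, month 6 beside month 5 and month 8 beside month 7, with a line joining the libraries of a mouse. Alas2 and Slc4a1 mark red cells, mt-Cytb the mitochondrial genome, Pf4 platelets, Cd79a B cells and Mmp9 neutrophils; Cd79a was lower and Alas2 higher on average at months 6 and 8 in 7 of 7 mice, and mouse 3335 had a lower Alas2 level at month 8 than at month 7.

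Outside red cell genes, 2 more groups were higher in the mean of both pairs of months. All 16 platelet and megakaryocyte genes had a positive mean difference, and the median was 0.94 (2.46 above all genes). Of these 16 genes, 8 were higher in all 7 mice, where 3.98% of all genes were. The platelet difference lay against month 5 and not against month 7. The list median was 2.01 for month 7 minus month 5 (16 of 16 positive). It was -0.08 for month 6 minus month 7 (6 of 16 positive) and -0.07 for month 8 minus month 7 (7 of 16). Pf4, a platelet chemokine (chromosome 5, 90772435 to 90773383), was higher by 1.46 ± 0.67, and its kin Ppbp by 1.35 ± 0.68. The receptor Clec1b was higher by 1.37 ± 0.72 and Gp9, of the von Willebrand factor receptor, by 1.27 ± 0.59. The 7 genes of the mitochondrial genome had a median of 1.06, and 4 were higher in all 7 mice. The NADH dehydrogenase subunit mt-Nd6 was higher by 1.49 ± 0.64 and mt-Cytb by 1.28 ± 0.57. Platelet genes took 1.83 ± 0.875% of reads at months 6 and 8 and 1.03 ± 0.285% at months 5 and 7.

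Most of the lists that were higher had larger differences between months 6 and 5 than between months 8 and 7. The mean of the 16 platelet genes differed by 1.99 ± 1.03 between months 6 and 5 (higher in 7 of 7 mice) and by -0.00 ± 1.39 between months 8 and 7 (higher in 4 of 7). For the mitochondrial genes the values were 1.91 ± 0.92 (7 of 7) and 0.37 ± 0.91 (4 of 7). Pf4 alone had 2.47 and 0.45. Late maturation genes differed by 1.65 ± 0.73 (7 of 7) and 0.58 ± 0.51 (6 of 7), and membrane genes by 1.59 ± 0.67 and 0.38 ± 0.36 (7 of 7 both). The erythroid transcription factors had 0.42 ± 0.46 (5 of 7) and -0.49 ± 0.31 (0 of 7), and heme synthesis genes 0.25 ± 0.31 (6 of 7) and -0.35 ± 0.40 (1 of 7), so the sign of their mean differed between the pairs. The globin genes were higher in 7 of 7 mice in both pairs, by 2.62 ± 1.02 (months 6 and 5) and 1.43 ± 0.88 (months 8 and 7), and the B cell genes lower in 7 of 7 in both, with -1.74 and -2.40. The difference between the pairs was not tested. Across 10824 genes the mean differences of the 2 pairs, which share mice but no library, had r = 0.875 as a description.

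**Figure D3:**
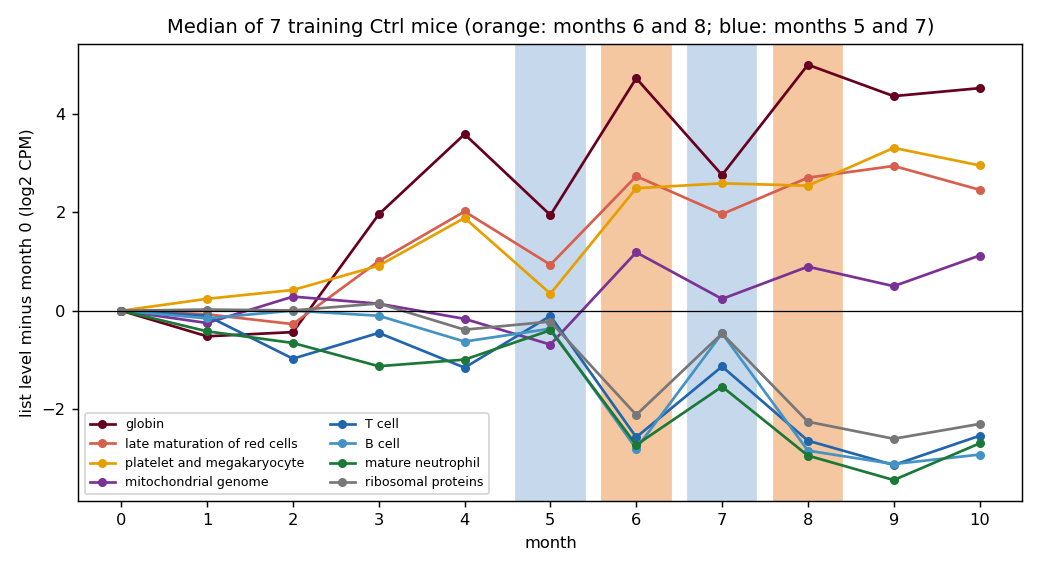
Level of 8 gene lists by month, as the median over 7 training Ctrl mice of the list's mean log2 CPM minus that of month 0; orange bands are months 6 and 8, blue bands months 5 and 7. Globin is higher in the orange bands than in the blue ones while B cell, T cell, neutrophil and ribosomal protein lists are lower there, and the platelet list is nearly level between months 7 and 8.

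Genes of the main white blood cell types were lower. All 14 B cell genes, all 18 T cell genes, all 12 NK and cytotoxic genes and all 7 MHC class II genes were lower in 7 of 7 mice, as were 12 of 14 mature neutrophil and 13 of 14 monocyte genes, where 67.1% of all genes were. Their medians were -2.15 for B cells, -2.01 for T cells, -1.83 for NK cells, -2.20 for MHC class II, -2.42 for neutrophils and -2.19 for monocytes. Relative to all genes these lay -0.64, -0.50, -0.32, -0.69, -0.91 and -0.68 away. The medians of these 6 lists stayed negative under all 4 scalings.

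Cd79a, the signalling chain of the B cell receptor (chromosome 7, 24897497 to 24901858), lay between 3.93 and 8.00 log2 CPM (median 5.99) at months 6 and 8, against 7.05 to 9.01 (median 8.55) at months 5 and 7. It differed by -2.26 ± 0.50, or 4.80-fold lower. Cd79b differed by -2.35 ± 0.47 and Ighm, the IgM heavy chain, by -2.25 ± 0.45. The T cell coreceptor Cd4 differed by -2.20 ± 0.80 and the T cell factor Tcf7 by -2.33 ± 0.64. The NK receptor Ncr1 differed by -2.05 ± 0.47 and granzyme B (Gzmb) by -2.25 ± 0.41. The MHC class II genes Cd74 and H2-Aa, which B cells and other antigen-presenting cells use, differed by -2.28 ± 0.52 and -2.23 ± 0.45. All of these genes were lower in 7 of 7 mice.

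The neutrophil list had the lowest of these 6 medians. Mmp9, a granule protease (chromosome 2, 164940326 to 164955850), lay between 1.15 and 6.64 log2 CPM (median 4.58) at months 6 and 8, against 5.08 to 10.57 (median 7.39) at months 5 and 7, a difference of -3.02 ± 0.79 or 8.12-fold lower. Mmp8 differed by -2.76 ± 0.69, Retnlg by -2.63 ± 0.86 and the chemokine receptor Cxcr2 by -2.61 ± 0.79. In monocytes the receptor Csf1r differed by -2.40 ± 0.68 and Ace by -2.53 ± 0.78. These 6 genes were lower in 7 of 7 mice. Ltf, a protein of neutrophil secondary granules, stood apart from its list with a mean difference of 1.41 and was higher in 5 of 7 mice.

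No gene had all 14 libraries of months 6 and 8 above all 14 of months 5 and 7 (0.0% of genes), and 8 genes (0.0432%) had them all below. Among the 8 were the lymphocyte activation gene Cd69 and Ccr7, the receptor that leads lymphocytes into lymph nodes. Ccr7 lay between 3.03 and 6.98 log2 CPM (median 5.41) at months 6 and 8, against 7.11 to 8.25 (median 7.46) at months 5 and 7.

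Groups that are not tied to one cell type were mixed. All 83 ribosomal protein genes were lower in 7 of 7 mice, with a median of -1.68, which lay -0.17 from all genes; under median-ratio scaling the median was -0.25 and 20 of the 83 were positive. Rpl6 differed by -2.05 ± 0.43. Of 18 interferon response genes, 13 were lower and 2 higher in all 7 mice, beside 67.1% and 3.98% of all genes. The 2 were Rsad2 (1.46) and Isg15 (1.19), and the list's share of reads was 0.355 ± 0.102% at months 6 and 8 and 0.173 ± 0.0432% at months 5 and 7. Oas2 differed by -2.54 ± 0.77. Of 20 cell cycle genes, 6 were higher and 8 lower in all 7 mice, with a median of -0.17 that was 1.23, 0.24 and 0.96 under the other 3 scalings. The mitotic gene Ube2c was higher by 1.81 ± 0.79, and the replication genes Mcm5 and Pcna differed by -1.92 ± 0.46 and -1.77 ± 0.34.

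The partner genes of the fusion were measured too. Cbfb (chromosome 8, 105170674 to 105217989) differed by -1.58 ± 0.45 and Myh11 by 0.42 ± 0.82, higher in 4 of 7 mice. Among the named genes that were higher in 7 of 7 mice, the 12 largest positive differences included 3 globin genes or pseudogenes given above (Hba-ps4, Hbb-b1 and Hbb-b2). The remaining 9 follow. The mitochondrial ribosomal RNAs mt-Rnr1 (2.57 ± 1.70) and mt-Rnr2 (2.55 ± 1.67) stood above Hbb-b1, and the small Cajal body RNA SCARNA6 had 2.0 ± 0.52. The others were Tmem56 (2.32 ± 0.78), Runx1t1 (2.09 ± 0.31), Ccne2 (2.06 ± 0.46), Esco2 (1.97 ± 0.78), Syngr1 (1.96 ± 0.94) and Hebp1 (1.95 ± 0.80). Since the 12 are given among genes higher in 7 of 7 mice, their shared sign is not a separate result. These libraries were made after removal of ribosomal RNA, and the part of that step was not tested.

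**Figure D4:**
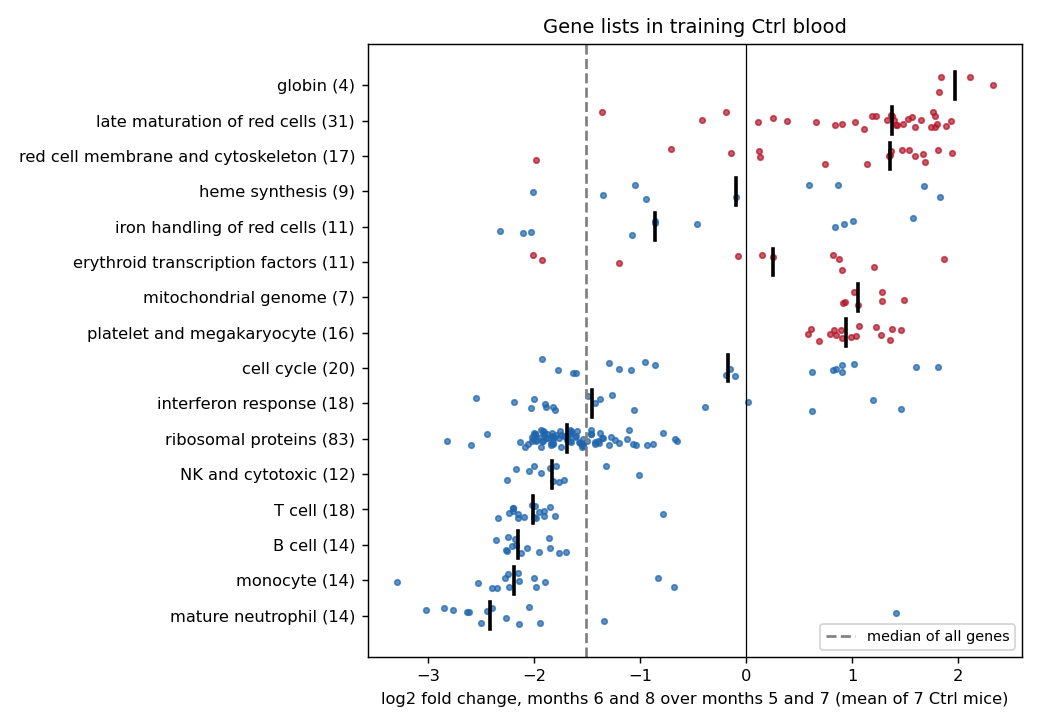
Log2 fold change of each member of 16 gene lists at months 6 and 8 over months 5 and 7 in training Ctrl blood, 1 point per gene as the mean of 7 mice; black bars are list medians, the dashed line is the median of all genes, -1.51, and red points belong to lists whose median is above 0. The globin median is 1.97 and that of mature neutrophils -2.42.

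The validation cohort gives the same question in mice and libraries that did not choose the months. Its 6 Ctrl mice (codes WT for 1, HW for 2 and CW for 3) had libraries at months 6 and 5, and none was used at months 8 and 7. The globin share rose in 6 of 6 mice, with a median of 3.51% at month 6 against 0.784% at month 5. The mean log2 difference was 2.01 ± 0.27 (SE), or 4.03-fold (exact two-sided sign-change test, p = 0.0312, the smallest that 6 mice allow). Month 5 had the lowest median of months 0 to 6 in these mice. At months 0 to 4 the medians were 2.67%, 1.21%, 2.41%, 1.48% and 3.20%, so month 6 lay close to month 4. The library of female mouse 2689 at month 6 held reads of the Y-linked gene Ddx3y at 2.88 log2 CPM, where males had 6.44 to 7.81. Depth was lower at month 6 in 4 of 6 mice, with 16.4 ± 4.69 M reads against 22.9 ± 4.24 M reads at month 5 (SD), and one library, that of mouse 2705 at month 6, had 8.68 M reads. The part of depth was not tested.

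Over 13607 genes, the limma fit called 338 higher (2.48%) and 2310 lower (17%) at month 6 with adjusted p below 0.05. The count rested on single mice: it was 2648 in all, 712 without mouse 2689, 832 without 2692, 1187 without 2705, 673 without 2720 and 4666 without 2702. Median-ratio scaling gave 602 higher and 654 lower. By sign alone, 417 genes (3.06%) were higher and 3473 (25.5%) lower in 6 of 6 mice. Of the 737 genes that were higher in all 7 training Ctrl mice, 537 were measured, and 185 of these (34.5%) were called higher, where 2.48% of all genes were. Of the 12425 lower in all 7, 10072 were measured and 2148 (21.3%) were called lower, where 17% of all genes were. Read from the other side, 185 of the 332 measured genes called higher in the validation cohort (55.7%) had been higher in all 7 training mice. Of all 13232 genes measured in both cohorts, 537 had been higher in all 7. Of the 2261 measured genes called lower, 2148 had been lower in all 7 training mice, beside 10072 of all 13232.

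Globin, late maturation, membrane and mitochondrial genes rose at month 6 in the validation cohort. Called higher were 3 of 4 globin genes, 21 of 31 late maturation genes, 8 of 17 membrane genes and 6 of 7 mitochondrial genes. None was called lower in these lists, where 2.48% of all genes were called higher and 17% lower. Their medians were 2.02, 0.91, 1.05 and 1.60, beside -0.23 for all genes. Without mouse 2689 the counts were 3, 16, 5 and 6, without mouse 2692 they were 3, 13, 2 and 6, and without mouse 2720 they were 3, 14, 4 and 6. Hba-a1 rose by 2.03 ± 0.26 (SE, adjusted p = 0.00593) and Hba-a2 by 2.11 ± 0.26 (adjusted p = 0.00593). Alas2 rose by 2.0 ± 0.25 (adjusted p = 0.00593) and Fech by 1.90 ± 0.24 (adjusted p = 0.00593). Hbb-b2 rose by 1.97 ± 0.33 (adjusted p = 0.0103). Hbb-b1 had 2.01 ± 0.61 but did not pass (adjusted p = 0.0527), and passed without mouse 2702 (0.0255).

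Bnip3l rose by 1.08 ± 0.14 (adjusted p = 0.00634) and Ube2c by 2.18 ± 0.34 (adjusted p = 0.00909). Hemgn rose by 1.67 ± 0.30 (adjusted p = 0.012), Bpgm by 1.90 ± 0.26 (adjusted p = 0.0066) and Slc4a1 by 1.96 ± 0.43 (adjusted p = 0.0204). Slc4a1 missed the threshold without mouse 2692 (adjusted p = 0.0669) and without mouse 2720 (0.0516). The mitoferrin Slc25a37 rose by 1.35 ± 0.27 (adjusted p = 0.0158), with an adjusted p of 0.0514 without mouse 2692 and 0.0512 without mouse 2720, and Slc25a28 fell by 0.60 (SE 0.10, adjusted p = 0.00971), with 0.0505 under median-ratio scaling. Ppox fell by 1.20 (SE 0.16, adjusted p = 0.00665) and Ldb1 fell by 1.04 (SE 0.11, adjusted p = 0.00516). Alas1 had 0.06 ± 0.18 (adjusted p = 0.847), where it had been lower in 7 of 7 training mice. Tmem56 rose by 2.39 ± 0.67 (adjusted p = 0.0438), but the adjusted p was 0.0684 to 0.117 when any mouse other than 2702 was left out, 0.0536 under median-ratio scaling and 0.0570 under quantile normalization. Runx1t1 had 2.32 ± 0.73 (adjusted p = 0.0603), and 1.59 without mouse 2702 (adjusted p = 0.0368).

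The mitochondrial transcripts mt-Nd6 (1.63 ± 0.23, adjusted p = 0.00695), mt-Cytb (1.58 ± 0.21, adjusted p = 0.00639) and mt-Nd2 (1.69 ± 0.23, adjusted p = 0.00657) rose, and mt-Co1 had 0.72 ± 0.25 (adjusted p = 0.0796), and passed without mouse 2702 (adjusted p = 0.0387) and under median-ratio scaling (0.0496). Of 16 platelet genes, 7 were called higher, where 2.48% of all genes were, with a median of 0.73. The platelet count was 0 without mouse 2689, 2 without mouse 2683, 2692 or 2720, and 13 without mouse 2702. Over all genes, calls of higher also fell without mouse 2683, 2689, 2692 or 2720. They went from 338 to 94 without mouse 2689, to 78 without mouse 2720 and to 548 without mouse 2702. Pf4 rose by 0.77 ± 0.18 (adjusted p = 0.0249), but the adjusted p was 0.0540 to 0.0760 without mouse 2683, 2689, 2692 or 2720. Mitochondrial ribosomal RNA took 2.58 ± 0.601% of reads at month 6 and 1.73 ± 0.645% at month 5 in these libraries.

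White cell genes lay nearer to 0 in the validation cohort than in the training mice, a difference that was not tested. Of 18 T cell genes 5 fell, and of 12 NK genes 4 fell, where 17% of all genes did, with medians of -0.64 and -0.61. The counts were 0 and 1 without mouse 2689, 2692 or 2720, 1 and 1 without mouse 2705 and 9 and 6 without mouse 2702. Calls of lower over all genes moved in the same settings. They went from 2310 to 618, 716 and 595 without mouse 2689, 2692 or 2720, to 907 without mouse 2705 and to 4118 without mouse 2702. Cd4 fell by 0.79 (SE 0.21, adjusted p = 0.0389), but the adjusted p was 0.0704 to 0.117 without mouse 2689, 2692, 2705 or 2720, 0.151 under median-ratio scaling and 0.171 under quantile normalization. Of 14 B cell genes 1 fell, and of 14 neutrophil genes none passed. Cd79a had 0.14 ± 0.23 (adjusted p = 0.683) and Mmp9 -0.18 ± 0.27 (adjusted p = 0.656). Without mouse 2702, Cd79a had 0.40 and was called higher (adjusted p = 0.0163). Of 79 ribosomal protein genes 19 fell, where 17% of all genes did, and 8 fell without mouse 2689 or 2692. Their median was -0.22 beside -0.23 for all genes; that median was 0.04 under median-ratio scaling. Oas2 fell by 1.71 (SE 0.31, adjusted p = 0.0126).

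**Figure D5:**
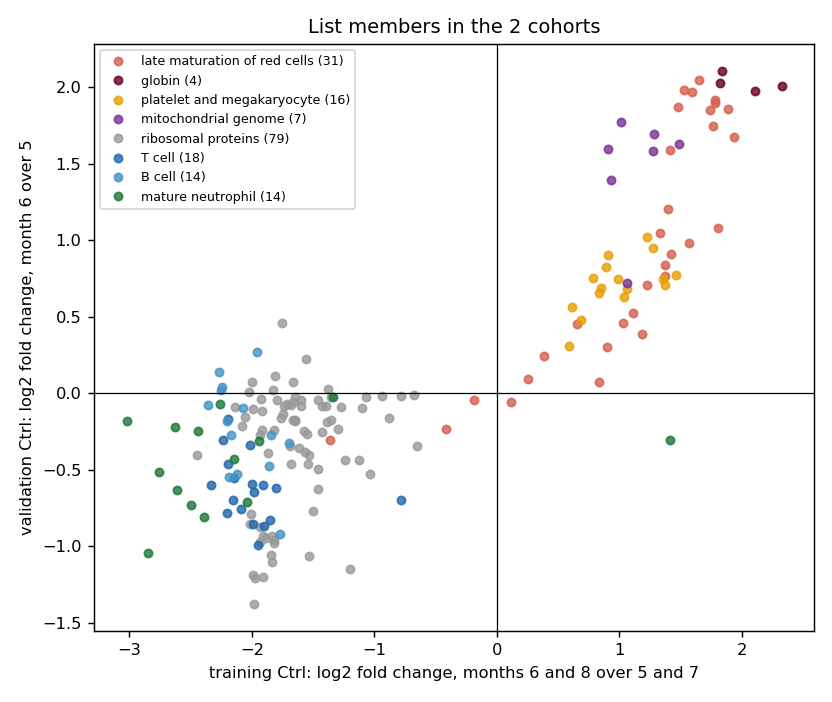
Log2 fold change of list members in the training Ctrl mice (horizontal, months 6 and 8 over 5 and 7, 7 mice) and in the validation Ctrl mice (vertical, month 6 over month 5, 6 mice), 1 point per gene, with the number of genes per list in the legend. Globin, late maturation, platelet and mitochondrial genes lie mostly at the upper right. B cell and neutrophil genes near -2 on the horizontal axis scatter around or just under 0 on the vertical one.

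The CM mice of the training cohort, sampled at the same months while leukemia developed in them, did not share one globin pattern. The ratio of globin share was 2.50-fold in mouse 3368, 2.87-fold in mouse 3370, 12.7-fold in mouse 3336, 0.803-fold in mouse 3334 and 0.0391-fold in mouse 3341, or 0.30 ± 1.40 on the log2 scale (SE, exact two-sided sign-change test, p = 0.812; the smallest that 5 mice allow is 0.0625). Mice 3334 and 3341 had libraries of months 6 and 5 alone. Mouse 3336 had none used at month 8, and its share was 21.6% at month 6, against 8.71% at month 5 and 0.333% at month 7. The limma fit called 0 of 18508 genes (0.0%), while 5044 had an unadjusted p below 0.05. A fit on all 15 libraries with mouse as a block called 4257, but it counts libraries rather than mice as units. At month 6 against month 5 alone, the fit on 1 difference per mouse called 2005.

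The white cell lists of the CM mice differed from each other. Of 14 B cell genes 13, and of 14 neutrophil genes 8, were lower in all 5 CM mice, where 21.2% of all genes were. Lower in all 5 were 3 of 18 T cell, 1 of 12 NK, 2 of 14 monocyte and 0 of 7 MHC class II genes. The list medians were -1.72 for B cells, -1.84 for neutrophils, -1.39 for T cells, -0.99 for NK cells, -0.61 for monocytes and -1.02 for MHC class II, beside -0.60 for all genes. Of 17 membrane genes 8 were higher in all 5, and of 7 mitochondrial genes 5, where 2.17% of all genes were. Alas2 had 0.26 ± 0.80 (SE, adjusted p = 0.838), higher in 3 of 5 mice, and Slc4a1 had 0.72 ± 0.73 (adjusted p = 0.514), higher in 4 of 5. Cd79a had -1.75 ± 0.38 (SE, adjusted p = 0.106) and Mmp9 -2.19 ± 0.47 (adjusted p = 0.106), each lower in 5 of 5 mice. Of the 737 genes higher in all 7 Ctrl mice, 638 (86.6%) had a positive mean difference in CM mice, where 22.2% of all genes did. Their median was 0.65, and that of the 12425 genes lower in all 7 Ctrl mice was -0.79. Whether the Ctrl and CM mice differed in this contrast was not tested.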

How the data were processed

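Bulk RNA-seq of mouse blood was analysed from 2 tables of log2 CPM that the authors deposited, 1 for the training and 1 for the validation cohort, each on its own filter and scale, so tests were made only within a table. Per the submitters' processing notes, the tools were STAR, featureCounts (Subread) and edgeR with the GRCm38 build. Their versions were not given in the sources used here. Deposited log2 CPM values were whole reads plus a prior of 0.25 reads, per 1000000 reads, with no composition factor. Whole reads were recovered for 100.0% of values (tolerance 0.01 reads), and libraries held 16.0 to 36.3 M reads (training) and 8.68 to 34.4 M reads (validation; M, 1000000 reads). All values are therefore shares of a library. Gene symbols matched 16266 of 18508 training IDs and 12612 of 13607 validation IDs.

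For each mouse, the mean of its libraries at months 5 and 7 was subtracted from that at months 6 and 8 (validation: month 5 from month 6). These differences, 1 per mouse, were fitted across all genes with limma 3.58.1 (R 4.3.3, trended variance) and p-values were adjusted by Benjamini-Hochberg over all genes, with a threshold of 0.05. The pairing is by animal, since each mouse gave every library of its difference. The Ctrl months were chosen by globin share, so no p is given for the training Ctrl mice; their errors are SDs over 7 mice. The globin share was tested with an exact sign-change test. The 37 gene lists, the named genes and the comparisons were chosen with earlier results of these data known. Named genes were 12 of the largest differences in each direction at a mean log2 CPM above 1, and up to 4 members of each list. The 12 increases are given among genes higher in all 7 Ctrl mice. Ltf, Rsad2, Isg15 and Cd69 were named after their values were seen. Alternatives were other scalings (median-ratio, CPM outside the globin genes, quantile), a prior of 2 reads, a filter at a mean log2 CPM above 1, fits on all libraries with and without mouse as a block, the G label, sex, each pair of months alone and each mouse left out. On simulated data of the same size the fit recovered 93% of genes changed by 1 and 100% of those changed by 2 (log2) in 7 Ctrl mice. It recovered 24% and 100% in 5 CM mice and 33% and 99% in 6 validation mice. These shares hold for the simulated spread, and whether it matched the real spread was not tested. The real CM mice had an SD of 3.12 for the log2 globin difference, so the shares are not the power of the real fits. Promoter sequences were taken from RefSeq. Python 3.11.15, pandas 2.3.3 and scipy 1.17.1 were used.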

Additional observations from a re-analysis of the deposited data

Results flagged for a closer look

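Of the groups of 4 to 10 mice checked for a single mouse far from the others, 9 held one, or 8.18% of them, where chance gives about 1 in 20. Mouse 3335 of the training Ctrl mice had 13.1% globin reads at month 5, with 4.90% in the next mouse, and the smallest log2 globin difference, 0.741, with 1.98 in the next. Its Hbb-b2 difference was 0.58, with 1.93 in the next mouse. Rpl6 differed by -1.20 in mouse 3339, with -1.97 in the next.

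In the validation cohort, mouse 2705 had 2.80% globin reads at month 5 (next 0.967%). There the Fech difference was 3.24 in mouse 2689 (next 2.0), that of Tmem56 was 6.27 in mouse 2702 (next 2.39), that of mt-Cytb was 0.52 in mouse 2683 (next 1.62) and that of Cd79a was -1.18 in mouse 2702 (next 0.18).

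Months outside the contrast also held high globin shares. In training Ctrl mice the lowest share was 1.78% at month 3, 11.3% at month 9 and 4.21% at month 10, each above the highest share of months 0 to 2, which was 1.78% after rounding. The median share was 12.5% at month 4, 24.9% at month 9 and 31.2% at month 10. It was 3.56% at month 5 and 7.28% at month 7, and 29.9% at month 6 and 39.1% at month 8. High shares were thus not particular to months 6 and 8.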

How the results depend on the processing

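Depth and the share scale limit these results, and 5 or 6 mice leave small effects uncalled. In CM mice large differences such as that of Mmp9 were not called either. In training Ctrl mice 15430 genes were called; median-ratio scaling gave 10154 and a filter at a mean log2 CPM above 1 gave 10010 of fewer genes, and leaving out 1 mouse gave 14923 to 15311. The globin difference was 2.11 to 2.47 with 1 mouse left out. In CM mice 0 genes were called, and 2005 at month 6 against 5 alone; leaving out 1 mouse gave 0. The globin difference of CM mice was -0.54 to 1.55 with 1 mouse left out, -0.54 without mouse 3336 and -0.0016 without mouse 3370. In the validation cohort 2648 genes were called, 1256 with median-ratio scaling, 1183 with quantile normalization and 673 to 4666 with 1 mouse left out; the globin difference stayed at 1.80 to 2.15, each with p = 0.0625 by the exact test, the smallest that 5 mice allow. The replicate block by animal, over all libraries, gave 15000 calls in Ctrl mice, and 15004 without the block. In CM mice the block gave 4257 and no block 2408. In the validation cohort the fit without the block gave 2541. These fits over all libraries count libraries rather than mice as units. Directions changed in these genes. In CM mice with 1 mouse left out, Alas2 ran from -0.50 to 1.45 and Slc4a1 from -0.12 to 1.72, both negative without mouse 3336; Alas2 was -0.20 under quantile normalization. In training Ctrl mice Ppox was 0.0892 under median-ratio scaling, and Gata1 was -0.0315 at month 8 against 7 alone. In the validation cohort with 1 mouse left out, Alas1 ran from -0.13 to 0.14 and Mmp9 from -0.35 to 0.0178; Mmp9 was 0.0787 under median-ratio scaling. Of 27 validation genes given values, 5 lost their call without at least 1 mouse (Cd4, Pf4, Slc4a1, Slc25a37 and Tmem56). The causes were not tested.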
